A study of Mus musculus with 12 samples.

Results

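The 47 genes described here encode the urea cycle and the enzymes and transporters of amino acid breakdown in the liver. They were taken from a fixed list of symbols by a rule that uses no measured value. The list itself was chosen with earlier results of these data known. All 47 were found among the 35275 mouse genes of the FPKM table, each in a single row, and all 47 were among the 12466 genes expressed highly enough to be tested. FPKM counts the fragments of a gene per kilobase of its length, relative to the depth of each library. The genes fall into 7 groups by role: the urea cycle with its transporters (9 genes), tyrosine breakdown (4), tryptophan breakdown with the aromatic amino acid decarboxylase (8), histidine breakdown (3), glutamine, glutamate and the transaminases (5), serine, glyoxylate, proline and lysine metabolism (7), and branched-chain amino acid breakdown (11).

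The liver strips nitrogen from amino acids by transamination and deamination, and hepatocytes around the portal vein convert the released ammonia to urea in a cycle that starts in mitochondria and ends in the cytosol. The carbon skeletons feed glucose production, ketone bodies and the citric acid cycle, and the tryptophan chain also supplies the precursor of NAD. Many of these enzymes are abundant in hepatocytes and are known to respond to dietary protein, glucagon, glucocorticoids and liver injury.

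Whole liver RNA was sequenced in 12 libraries, 3 in each of 4 groups, which the labels call biological replicates, and p-values measure only the spread between these samples. Mice of wild-type (WT) genotype and Pctp-/- mice, without phosphatidylcholine transfer protein (PC-TP) in the whole body and not only in hepatocytes, were fed either chow or a methionine and choline-deficient (MCD) diet, which is used to induce steatosis and liver damage. The study's methods state that all mice were male, while the strain, the age and the time on the MCD diet of these mice were not given in the sources used here. The comparisons were MCD against chow within each genotype, Pctp-/- against WT within each diet, and the difference of the diet responses of the genotypes.

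Total reads per library were 38760682 to 69490066, and the share of reads that mapped uniquely was 77.59 to 79.41% in the 6 chow libraries and 85.66 to 87.55% in the 6 MCD libraries. Diet and this difference in sequencing cannot be told apart, whereas the genotypes were compared within a diet. Pctp was 1.21 to 2.65 FPKM in WT and 0.330 to 0.566 in Pctp-/- mice on chow, and 3.61 to 7.90 in WT and 0.156 to 0.329 in Pctp-/- mice on MCD, so the genotypes did not overlap on either diet, and the log2 difference was -1.07 on chow (adjusted p = 0.15) and -2.33 on MCD (adjusted p = 0.00062). The summed FPKM of 8 hepatocyte markers was 49658 to 58591 in WT and 54799 to 57937 in Pctp-/- mice on chow. On MCD that sum was 67006 to 74977 in WT and 82011 to 89360 in Pctp-/- mice. Of the 8 markers 1 rose and 1 fell on MCD in WT at an adjusted p under 0.05 in limma. In WT 34.5% of all tested genes rose and 22.5% fell. In Pctp-/- mice 2 of the 8 rose and 1 fell, against 26.0% and 24.4% of all tested genes. Alb, which is among the 8, alone took 5.46 to 6.13% of the summed FPKM of all genes on chow. On MCD Alb took 7.84 to 8.69% in WT and 10.7 to 11.7% in Pctp-/- mice. Replicate 1 of the WT MCD group held the highest summed FPKM of 8 macrophage markers (483, against 228 and 335 in the other WT MCD libraries) and was the lowest of its group for 36 of the 47 genes, against 30.3% of all tested genes.

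On the MCD diet more of the 47 genes fell than rose in both genotypes. In WT mice 28 of the 47 genes fell and 4 rose at an adjusted p under 0.05 in limma, where 22.5% of all tested genes fell and 34.5% rose. In Pctp-/- mice 22 fell and 2 rose, against 24.4% and 26.0% of all tested genes. The median log2 fold change was -0.55 in WT, against 0.11 over all genes, and -0.28 in Pctp-/- mice, against 0.04. With median-of-ratios scaling, which moved the median of all genes in WT to -0.00130, 34 of the 47 fell and 3 rose in WT while 28.3% of all genes fell and 28.4% rose, and the median of the 47 lay 0.69 below that of all genes, where it lay 0.66 below without that scaling. Fold changes here refer to log2(FPKM + 1), so those of genes with low FPKM are understated.

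All 3 MCD libraries lay below all 3 chow libraries for 32 of the 47 genes in WT, against 26.0% of all genes, and for 27 in Pctp-/- mice, against 27.5%. They lay above for 6 in WT, against 37.7%, and for 2 in Pctp-/- mice, against 32.3%.

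The 47 genes together made up 2.10 to 2.27% of the summed FPKM in WT mice on chow and 2.11 to 2.25% in Pctp-/- mice on chow. On MCD their share was 1.10 to 1.34% in WT and 1.28 to 1.50% in Pctp-/- mice. The diets did not overlap in either genotype, while the genotypes overlapped on both diets. In whole liver, fewer hepatocytes of a zone and less RNA per cell cannot be told apart. The summed FPKM of the macrophage markers was 51.6 to 89.1 in WT and 47 to 120 in Pctp-/- mice on chow, and 228 to 483 and 242 to 319 on MCD. On MCD 7 of the 8 markers were higher in WT and 4 of the 8 in Pctp-/- mice, against 34.5% and 26.0% of all tested genes. None of the markers was at 0 in every library. Their part in the falls was not tested.

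**Figure D1:**
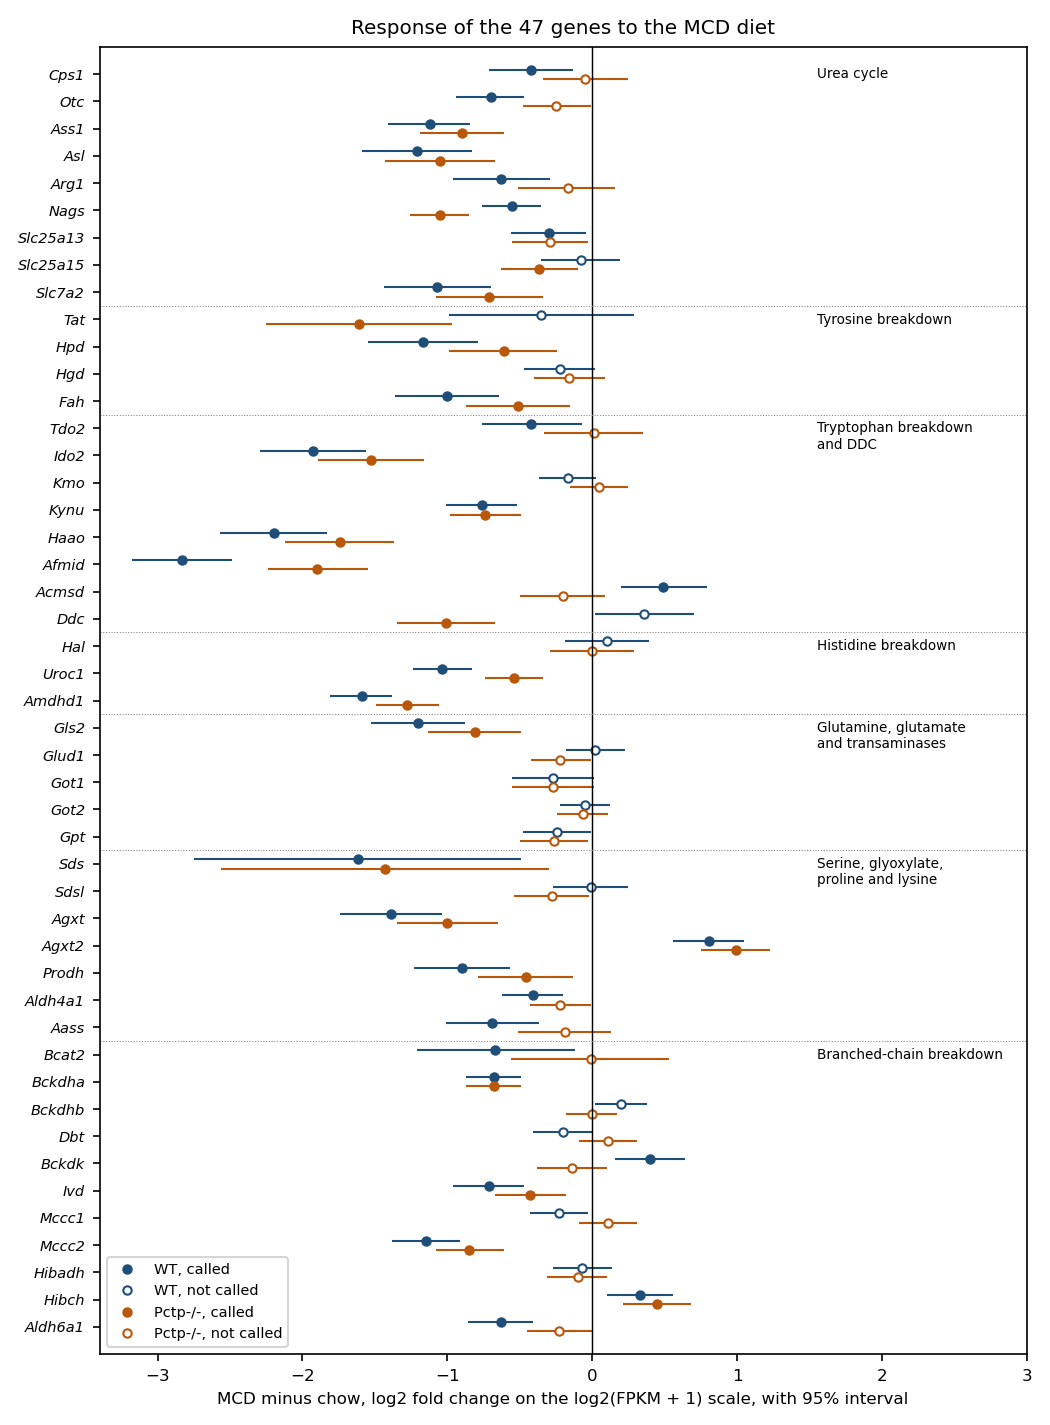
Log2 fold change of MCD against chow for each of the 47 genes in WT (blue) and Pctp-/- mice (orange), with 95% intervals from limma, ordered by group. Filled points passed an adjusted p under 0.05. Most filled points lie left of 0, from -2.83 for Afmid in WT, and Agxt2 is the farthest to the right in both genotypes (0.81 and 0.99).

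The fall was shared by the genotypes for 19 genes, which were 67.9% of the genes that fell in WT and 86.4% of those that fell in Pctp-/- mice. They were Ass1, Asl, Nags, Slc7a2, Hpd, Fah, Ido2, Kynu, Haao, Afmid, Uroc1, Amdhd1, Gls2, Sds, Agxt, Prodh, Bckdha, Ivd and Mccc2. For 17 of these 19 the fitted fall was larger in WT, but for none of the 19 did the difference of the responses pass the threshold. The matching shares over all tested genes are not given here. Replicate 1 of the WT MCD group was the lowest of its group for most genes of the whole set. The median of the response in Pctp-/- mice minus that in WT, over the whole set, was 0.22, and 0.14 without that library. The part of that library in the larger falls in WT was not tested gene by gene. Agxt2 and Hibch rose in both genotypes. The 12 genes that passed in neither genotype were Hgd, Kmo, Hal, Glud1, Got1, Got2, Gpt, Sdsl, Bckdhb, Dbt, Mccc1 and Hibadh.

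Some of the genes near the threshold passed once a single library was left out. In WT these were Bckdhb, Gpt, Hgd and Kmo without replicate 1 of the WT chow group (adjusted p = 0.0138, 0.0465, 0.0306 and 0.043), Hgd without replicate 3 of the WT MCD group (0.0383), Dbt and Mccc1 without replicate 1 of the Pctp-/- chow group (0.04 and 0.0454) and Ddc without replicate 1 of the Pctp-/- MCD group (0.0481). In Pctp-/- mice they were Acmsd, Gpt and Sdsl without replicate 1 of the Pctp-/- chow group (0.0301, 0.0379 and 0.00594) and Slc25a13 without replicate 3 of that group (0.0325). They were also Got1 and Slc25a13 without replicate 2 of the Pctp-/- MCD group (0.0219 and 0.0276), Aldh4a1 without replicate 3 of that group (0.035), Glud1 and Slc25a13 without replicate 1 of the WT chow group (0.0449 and 0.0467), Gpt without replicate 1 of the WT MCD group (0.0357) and Otc without replicate 3 of the WT MCD group (0.0498).

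Other scaling and the correction for GC content and length, chosen after the data were seen, also moved genes across the threshold. With that correction 34 of the 47 genes passed for MCD in Pctp-/- mice in place of 24, and their median was -0.44 in place of -0.28. Those that then passed as lower in Pctp-/- mice were Otc (-0.63, adjusted p = 0.00142), Slc25a13 (-0.57), Acmsd (-0.53), Glud1 (-0.51), Aass (-0.49), Hibadh (-0.45), Aldh6a1 (-0.44), Arg1 (-0.40), Hgd (-0.38), Bckdhb (-0.34) and Kmo (-0.24, adjusted p = 0.0451), and Aldh4a1 (0.31) and Sdsl (0.41) passed as higher. In WT the same correction brought Dbt (-0.56), Hgd (-0.45), Kmo (-0.44), Hibadh (-0.35), Mccc1 (-0.35) and Glud1 (-0.28) past the threshold as lower and Sdsl (0.53) as higher.

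With median-of-ratios scaling Dbt (-0.34), Hgd (-0.37), Kmo (-0.31), Mccc1 (-0.34), Gpt (-0.38) and Got1 (-0.41) passed as lower in WT, and Glud1 (-0.26) and Sdsl (-0.32) in Pctp-/- mice. Quantile normalization and rescaling without Alb each brought Dbt, Gpt, Hgd and Mccc1 past the threshold in WT. Of the 12 genes that passed in neither genotype, Hal and Got2 alone passed under none of these 4 settings, the replicate block, the filters, the pseudocount, the variance models, the choice of libraries or any left-out library.

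In the urea cycle some but not all steps fell on MCD. In WT mice 8 of its 9 genes fell, against 22.5% of all tested genes, and in Pctp-/- mice 5 of 9, against 24.4%. The median log2 fold changes of the 9 genes were -0.63 in WT and -0.37 in Pctp-/- mice. The summed FPKM of the 9 genes was 3880 ± 209 (SD, n = 3) in WT and 3731 ± 180 in Pctp-/- mice on chow, and 2214 ± 285 and 2592 ± 223 on MCD.

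Asl, argininosuccinate lyase (ENSMUSG00000025533, chromosome 5 from 130011258 to 130029247, minus strand in GRCm38), which splits argininosuccinate into arginine and fumarate, had the largest fall of the cycle in WT. Its FPKM on chow was 152, 242 and 273 in WT and 183, 204 and 226 in Pctp-/- mice. On MCD it was 86.2, 97.6 and 95.1 in WT and 91.5, 101 and 101 in Pctp-/- mice. Every MCD library lay below every chow library, and the genotypes overlapped on each diet. Asl fell by 1.21 (log2) in WT (standard error 0.17, adjusted p = 0.00011) and by 1.05 in Pctp-/- mice (standard error 0.17, adjusted p = 0.00037).

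Ass1, argininosuccinate synthase (ENSMUSG00000076441, chromosome 2 from 31470207 to 31520672, plus strand), joins citrulline to aspartate and was the most abundant of the 47 genes on average. On chow it measured 1674, 1921 and 1812 FPKM in WT and 1876, 1919 and 1649 in Pctp-/- mice. On MCD it measured 703, 876 and 917 in WT and 856, 940 and 1134 in Pctp-/- mice. All 6 MCD libraries lay below all 6 chow libraries. Ass1 fell by 1.12 (log2) in WT (standard error 0.13, adjusted p = 2.3e-05) and by 0.90 in Pctp-/- mice (standard error 0.13, adjusted p = 0.00015).

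Among the mitochondrial steps, Otc, ornithine transcarbamylase, fell in WT (log2 fold change -0.70, adjusted p = 0.00016) and was -0.25 in Pctp-/- mice (adjusted p = 0.0724), where it passed at -0.63 after the correction for GC content and length (adjusted p = 0.00142) and at -0.25 with the replicate block (0.0243) or with only the libraries of the comparison (0.047). Cps1, the carbamoyl phosphate synthetase that admits ammonia to the cycle, was -0.42 in WT (adjusted p = 0.0175) and -0.05 in Pctp-/- mice (adjusted p = 0.801). The Cps1 call in WT was lost without replicate 1 of the WT chow group (adjusted p = 0.0671) or of the WT MCD group (adjusted p = 0.0711). Arg1, arginase of the hepatocyte cytosol, fell in WT (-0.63, adjusted p = 0.00435) and was -0.17 in Pctp-/- mice (adjusted p = 0.375), where it passed at -0.40 after the same correction (adjusted p = 0.0323). For none of these genes did the difference between the genotypes' responses pass the threshold, with adjusted p of 0.188 for Otc, 0.372 for Cps1 and 0.352 for Arg1.

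Nags makes N-acetylglutamate, the compound that activates Cps1, and it was chosen here after its values were seen because its fitted fall was the larger in Pctp-/- mice. Its FPKM was 26.2 to 28.3 in WT and 27.8 to 32.0 in Pctp-/- mice on chow, and 16.5 to 20.5 in WT and 13.5 to 14.3 in Pctp-/- mice on MCD. Each MCD library of a genotype lay below its chow libraries, and on MCD each Pctp-/- library lay below each WT library. The log2 fold change was -0.55 in WT (adjusted p = 0.00037) and -1.05 in Pctp-/- mice (adjusted p = 4e-06), with a difference of -0.50 that did not pass (adjusted p = 0.139). After the correction for GC content and length, the fall of Nags in WT no longer passed (adjusted p = 0.842). Nags overlaps Gm11586 on the opposite strand, and the use of strand in counting was not given in the sources used here.

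The transporters of the cycle were less uniform. Slc7a2, which carries arginine and other cationic amino acids into the cell, fell in both genotypes (-1.07 in WT and -0.71 in Pctp-/- mice). Slc25a13, the mitochondrial aspartate and glutamate carrier, was close to the threshold in both (-0.30 with adjusted p = 0.0496 in WT, and -0.29 with adjusted p = 0.0602 in Pctp-/- mice), and the WT call was lost when any one of 8 libraries was left out, with adjusted p of up to 0.166, with the replicate block (0.0554), with no filter (0.0725) or with no mean-variance trend (0.0611). Slc25a15, the mitochondrial ornithine carrier, fell in Pctp-/- mice (-0.37, adjusted p = 0.0253) and was -0.08 in WT (adjusted p = 0.59). That call was lost without replicate 1 of the Pctp-/- chow group (adjusted p = 0.0952) or without replicate 2 or 3 of the Pctp-/- MCD group (0.0809 and 0.0633), with quantile normalization (-0.27, 0.11) and after rescaling without Alb (0.0524).

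**Figure D2:**
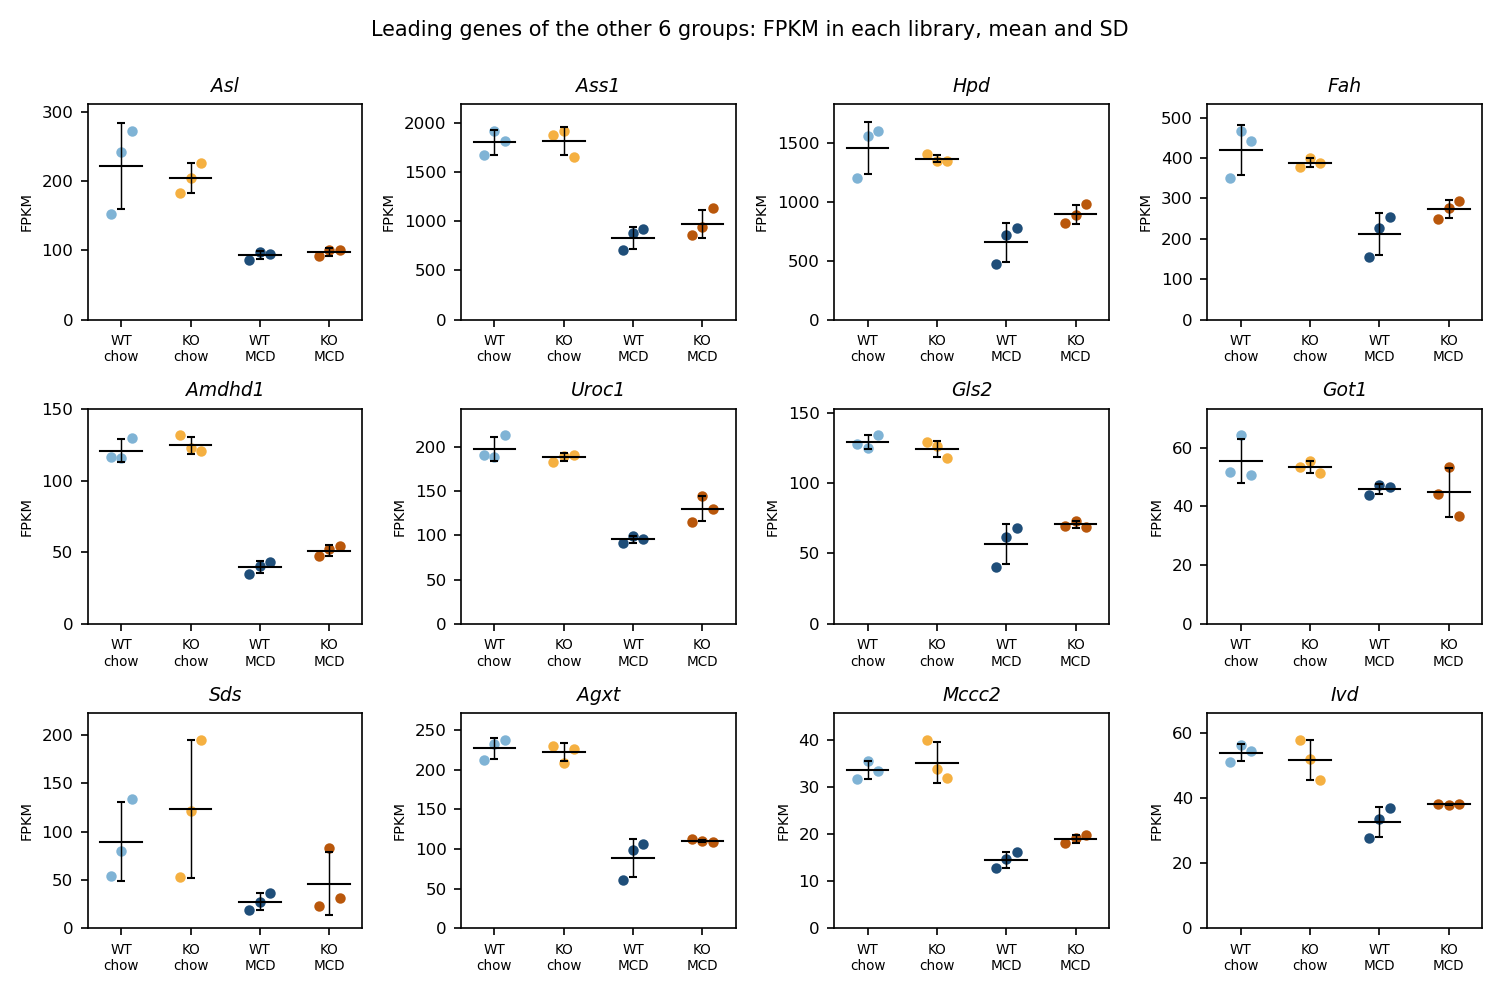
FPKM in each of the 12 libraries for the leading pair of genes in each group other than tryptophan breakdown, with the mean (line) and SD (bar) of 3 mice; the axes start at 0 and KO stands for Pctp-/-. For Asl, Ass1, Hpd, Fah, Amdhd1, Uroc1, Gls2, Agxt, Mccc2 and Ivd the MCD libraries lie below the chow libraries, while those of Got1 and Sds overlap with them in Pctp-/- mice.

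Tyrosine breakdown runs from Tat through Hpd, Hgd and the maleylacetoacetate isomerase to Fah, which yields fumarate and acetoacetate. Hpd and Fah fell in both genotypes. Hgd, homogentisate dioxygenase, did not pass in either (-0.22 with adjusted p = 0.102 in WT and -0.16 with adjusted p = 0.264 in Pctp-/- mice). Tat, tyrosine aminotransferase, passed in Pctp-/- mice alone, and the test of its difference between genotypes did not pass.

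Hpd, 4-hydroxyphenylpyruvate dioxygenase (ENSMUSG00000029445, chromosome 5 from 123171807 to 123182727, minus strand), measured 1202, 1560 and 1602 FPKM in WT and 1401, 1347 and 1349 in Pctp-/- mice on chow. With MCD feeding the values were 467, 720 and 779 in WT and 819, 886 and 979 in Pctp-/- mice. All MCD libraries lay below all chow libraries, replicate 1 of the WT MCD group was the lowest, and the genotypes did not overlap on MCD. The log2 fold change of MCD was -1.17 in WT (standard error 0.17, adjusted p = 0.00013) and -0.61 in Pctp-/- mice (standard error 0.17, adjusted p = 0.0111). Pctp-/- minus WT on MCD was 0.48 (adjusted p = 0.199), and 0.25 without replicate 1 of the WT MCD group. With quantile normalization the fall in Pctp-/- mice no longer passed (adjusted p = 0.118), and Hpd overlaps Gm26745 on its own strand and Psmd9 on the other.

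Fah, fumarylacetoacetase (ENSMUSG00000030630, chromosome 7 from 84585159 to 84606722, minus strand), measured 350, 468 and 443 FPKM in WT and 379, 400 and 388 in Pctp-/- mice on chow. The MCD libraries gave 154, 228 and 255 in WT and 250, 277 and 294 in Pctp-/- mice. The diets did not overlap in either genotype, and the lowest value was again in replicate 1 of the WT MCD group. Fah fell by 1.00 in WT (standard error 0.17, adjusted p = 0.00029) and by 0.51 in Pctp-/- mice (standard error 0.17, adjusted p = 0.0225). The call in Pctp-/- mice was lost without replicate 2 of its chow group (adjusted p = 0.0624) or replicate 1 of its MCD group (adjusted p = 0.0792).

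Tat, chosen after its values were seen, measured 558, 652 and 961 FPKM in WT and 1044, 997 and 1096 in Pctp-/- mice on chow. Under MCD the FPKM was 446, 754 and 503 in WT and 286, 567 and 246 in Pctp-/- mice. Each Pctp-/- library on chow lay above each WT library on chow, and the genotypes overlapped on MCD. The MCD log2 fold change was -1.61 in Pctp-/- mice (standard error 0.29, adjusted p = 0.0007) and -0.35 in WT (standard error 0.29, adjusted p = 0.327), and the difference of -1.26 did not pass (standard error 0.41, adjusted p = 0.185).

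The tryptophan group held the largest falls of the 47 genes. Tdo2 and Ido2 open the tryptophan ring, Afmid removes the formyl group to give kynurenine, Kmo and Kynu carry kynurenine to 3-hydroxyanthranilate, Haao opens that ring on the way to quinolinate, and Acmsd diverts the product away from NAD synthesis. Of the 8 genes 5 fell and 1 rose in WT, against 22.5% and 34.5% of all tested genes. In Pctp-/- mice 5 fell, against 24.4%. Afmid, Ido2, Kynu and Haao fell in both genotypes, and Kmo did not pass in either (-0.17 with adjusted p = 0.139 in WT and 0.05 with adjusted p = 0.676 in Pctp-/- mice).

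Afmid, kynurenine formamidase (ENSMUSG00000017718, chromosome 11 from 117825924 to 117839908, plus strand), measured 12.3, 17 and 18.5 FPKM in WT and 14.6, 12.8 and 10.9 in Pctp-/- mice on chow. On MCD it measured 1.10, 1.39 and 1.56 in WT and 2.19, 2.87 and 3.00 in Pctp-/- mice. The diets were far apart, and on MCD every Pctp-/- library lay above every WT library. MCD minus chow was -2.83 on the log2 scale in WT (standard error 0.16, adjusted p = 9.7e-08), a fold of 0.140, and -1.90 in Pctp-/- mice (standard error 0.16, adjusted p = 2.3e-06), a fold of 0.268. The difference of the responses, 0.94, did not pass (standard error 0.22, adjusted p = 0.117), nor did Pctp-/- minus WT on MCD (0.65, standard error 0.16, adjusted p = 0.0871). Without replicate 1 of the WT chow group the difference of the responses was 1.10 and passed (adjusted p = 0.047, range over the alternatives 0.047 to 0.278). Afmid overlaps Gm20708 on its own strand and Tk1 on the other.

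Haao, 3-hydroxyanthranilate dioxygenase (ENSMUSG00000000673, chromosome 17 from 83831156 to 83847963, minus strand), measured 434, 566 and 536 FPKM in WT and 558, 545 and 507 in Pctp-/- mice on chow. With MCD feeding the values were 83.7, 130 and 123 in WT and 143, 145 and 195 in Pctp-/- mice. As for Afmid, neither the diets nor the genotypes on MCD overlapped. Haao fell by 2.20 in WT (standard error 0.17, adjusted p = 1e-06) and by 1.74 in Pctp-/- mice (standard error 0.17, adjusted p = 7.7e-06), while Pctp-/- minus WT on MCD was 0.53 (adjusted p = 0.158) and 0.33 without replicate 1 of the WT MCD group.

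Ido2, the second indoleamine dioxygenase of the genome, had a mean of 35.3 ± 3.30 FPKM (SD, n = 3) in WT on chow and 8.54 ± 0.808 on MCD, with log2 fold changes of -1.93 in WT and -1.53 in Pctp-/- mice. Kynu, kynureninase, changed by nearly the same amount in the genotypes (-0.76 in WT and -0.74 in Pctp-/- mice, with a difference of 0.03, standard error 0.16). Tdo2, the main tryptophan dioxygenase of hepatocytes, was -0.42 in WT (adjusted p = 0.04) and 0.01 in Pctp-/- mice (adjusted p = 0.964). The WT call of Tdo2 was lost without replicate 3 of the WT chow group (adjusted p = 0.179), replicate 1 or 2 of the WT MCD group (0.139 and 0.114) or replicate 1 of the Pctp-/- MCD group (0.0511), with no filter (0.0784) or with only the libraries of the comparison (0.0753).

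Acmsd was low throughout (3.74 to 6.64 FPKM) and rose in WT, with 3.74 to 4.67 on chow and 5.74 to 6.64 on MCD (log2 fold change 0.49, adjusted p = 0.00836). The Pctp-/- values were 4.04 to 6.41 with chow and 4.0 to 4.66 with MCD (log2 fold change -0.20, adjusted p = 0.235). The difference of the responses was -0.69 (standard error 0.19, adjusted p = 0.142). After the correction for GC content and length the WT rise no longer passed (0.23, adjusted p = 0.201) and Acmsd passed as lower in Pctp-/- mice (-0.53, adjusted p = 0.0122).

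Ddc was the only one of the 47 genes to pass in a comparison of the genotypes. It encodes aromatic L-amino acid decarboxylase, which turns DOPA into dopamine and hydroxytryptophan into serotonin, and is ENSMUSG00000020182 (chromosome 11 from 11814101 to 11898144, minus strand). On chow it measured 26.6, 27.3 and 19.7 FPKM in WT and 43.7, 52.0 and 57.1 in Pctp-/- mice. The MCD libraries gave 33.8, 31.6 and 28.9 in WT and 30.2, 23.7 and 20.8 in Pctp-/- mice. The Pctp-/- libraries stood above WT on chow and overlapped with them on MCD. Ddc, Afmid and Nags are the 3 of the 47 genes on chromosome 11, which also carries Pctp. The part of sequence linked to the knockout in their values was not tested.

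On chow Ddc was 1.03 higher on the log2 scale in Pctp-/- mice (standard error 0.16, adjusted p = 0.0272), a fold of 2.04, and 0.136% of all tested genes passed in this comparison. On MCD, Pctp-/- minus WT was -0.34 (adjusted p = 0.307). MCD lowered Ddc in Pctp-/- mice (-1.01, standard error 0.16, adjusted p = 0.00022), while in WT each MCD library lay above each chow library without passing the test (0.36, adjusted p = 0.0683). The difference of the responses was -1.37 (standard error 0.22, adjusted p = 0.0488), and 0.0963% of all tested genes passed in that comparison.

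Both calls lay near the threshold. Over 23 alternatives the chow difference ranged from 0.88 to 1.13 with adjusted p of 0.0138 to 0.118, and the difference of the responses ranged from -1.51 to -1.21 with adjusted p of 0.0248 to 0.143. Of the 12 libraries left out in turn, 6 ended the call on chow, namely replicate 2 or 3 of the WT chow group (adjusted p = 0.0726 and 0.0825), replicate 2 or 3 of the Pctp-/- chow group (0.0905 and 0.0956), and replicate 2 of the WT MCD (0.0676) and Pctp-/- MCD (0.0522) groups. The call for the difference of the responses ended without any of these 6 libraries (adjusted p of 0.098, 0.0876, 0.0961, 0.0994, 0.14 and 0.143 in the same order), without replicate 1 of the WT MCD group (0.0669) and without replicate 3 of the Pctp-/- MCD group (0.13).

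**Figure D3:**
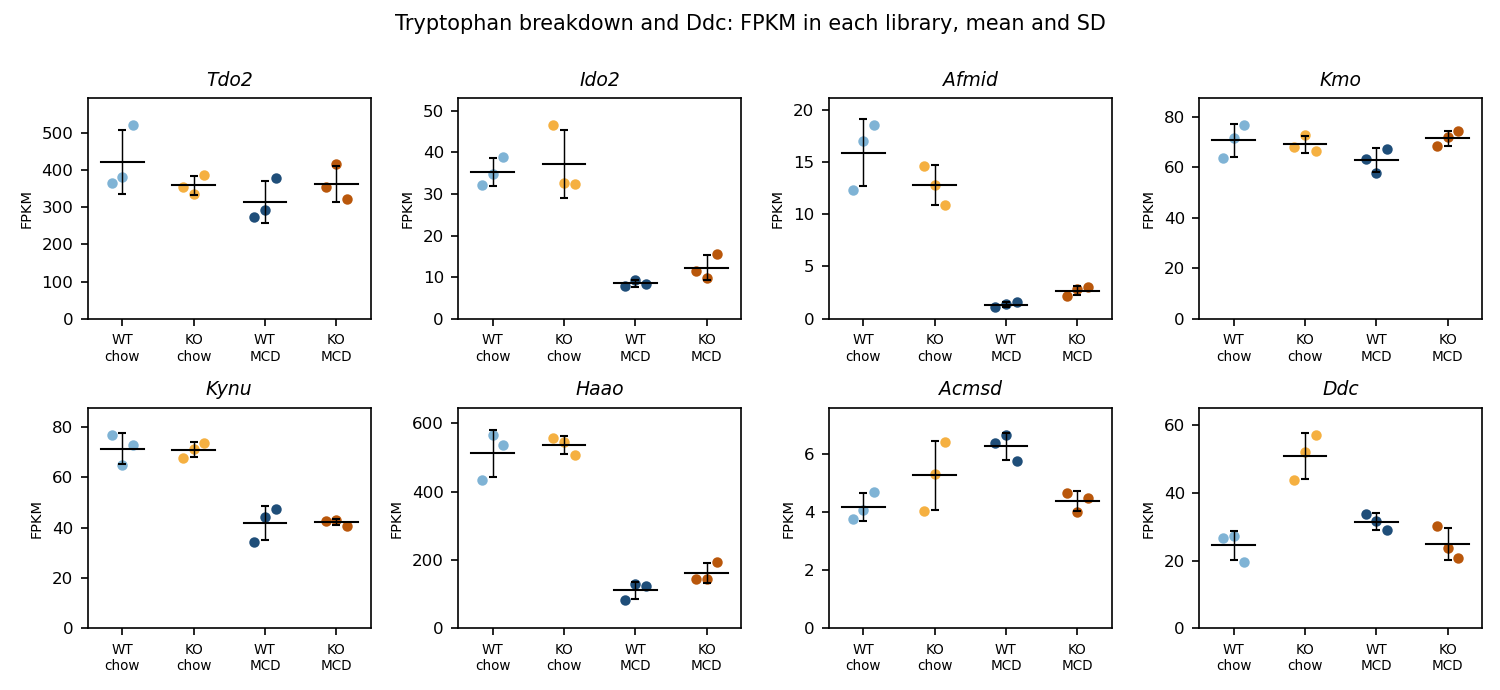
FPKM of the 8 genes of tryptophan breakdown, Ddc included, in each of the 12 libraries, with the mean (line) and SD (bar) of 3 mice; the axes start at 0 and KO stands for Pctp-/-. Ido2, Afmid, Kynu and Haao drop on MCD in both genotypes, and Ddc is highest in the Pctp-/- chow libraries (43.7 to 57.1).

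The promoter windows of the genes with the largest falls (Afmid and Haao), of the gene with the largest rise (Agxt2) and of both starts of Ddc are shown because these genes carry the diet and genotype results. Each runs from 250 bases before to 50 after a transcription start, 5′ to 3′, from RefSeq on GRCm38.p6. Agxt2 has 2 overlapping windows, and the window not shown (chr15:10358283-10358582) holds the HNF4 letters described next but not the C/EBP letters. Capitals mark, on either strand, the letters TTNNGCAA (C/EBP) or CAAAGTCCA (HNF4), both bound by factors that drive hepatocyte genes.
Afmid, chr11:117825669-117825968, plus strand: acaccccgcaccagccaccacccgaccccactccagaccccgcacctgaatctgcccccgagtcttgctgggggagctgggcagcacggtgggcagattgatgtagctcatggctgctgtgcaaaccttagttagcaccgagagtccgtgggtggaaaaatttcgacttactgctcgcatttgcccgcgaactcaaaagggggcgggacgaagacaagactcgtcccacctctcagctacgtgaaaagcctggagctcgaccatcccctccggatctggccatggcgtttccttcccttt
Haao, chr17:83846741-83847040, minus strand: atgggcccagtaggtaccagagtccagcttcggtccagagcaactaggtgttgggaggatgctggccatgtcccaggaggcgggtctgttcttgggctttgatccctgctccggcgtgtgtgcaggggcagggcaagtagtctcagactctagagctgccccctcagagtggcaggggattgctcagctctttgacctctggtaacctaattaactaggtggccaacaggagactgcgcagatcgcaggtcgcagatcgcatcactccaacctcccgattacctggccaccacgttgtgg
Agxt2, chr15:10358329-10358628, plus strand: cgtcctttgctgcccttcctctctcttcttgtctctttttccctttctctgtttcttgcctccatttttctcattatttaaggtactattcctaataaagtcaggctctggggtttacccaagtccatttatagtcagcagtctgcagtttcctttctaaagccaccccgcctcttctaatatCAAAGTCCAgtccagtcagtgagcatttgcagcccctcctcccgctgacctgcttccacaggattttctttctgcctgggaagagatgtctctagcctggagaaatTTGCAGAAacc
Ddc, chr11:11890359-11890658, minus strand: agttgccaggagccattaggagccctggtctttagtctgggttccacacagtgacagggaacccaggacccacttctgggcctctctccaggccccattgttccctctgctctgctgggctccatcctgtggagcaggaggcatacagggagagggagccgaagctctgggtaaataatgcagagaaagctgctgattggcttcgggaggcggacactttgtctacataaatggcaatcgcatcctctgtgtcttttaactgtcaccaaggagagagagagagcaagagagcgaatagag
Ddc, chr11:11898095-11898394, minus strand: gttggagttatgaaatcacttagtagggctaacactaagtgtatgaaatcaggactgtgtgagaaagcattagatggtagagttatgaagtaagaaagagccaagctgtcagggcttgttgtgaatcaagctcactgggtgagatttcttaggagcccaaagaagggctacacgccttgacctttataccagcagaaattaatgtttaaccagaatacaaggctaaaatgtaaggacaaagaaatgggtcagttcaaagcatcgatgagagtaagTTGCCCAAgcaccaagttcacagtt

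Of the 47 genes, 36 had at least 1 such window, 42 windows in all, and Gpt, Asl, Cps1, Gls2, Sdsl, Kynu, Dbt, Arg1, Slc7a2, Ido2 and Sds had none. The C/EBP letters were in 11.9% of the 42 windows and in 10.8% of all 32851 windows, at Aass, Agxt2, Ddc, Hal and Hgd. The HNF4 letters were in 4.76%, the 2 overlapping windows of Agxt2, against 0.475% of all windows. The letters TGACG (a core of the cAMP response element) were in 9.52% against 20.8%, and TGTTCT (a glucocorticoid receptor core) in 14.3% against 19.0%. The motifs were searched one by one and their overlaps were not removed. A match describes the letters of these windows and not a bound site.

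Histidine breakdown begins with Hal, histidase, and goes on through Uroc1, urocanase, and Amdhd1, imidazolonepropionase. Uroc1 and Amdhd1 fell in both genotypes, whereas Hal had log2 fold changes of 0.10 in WT (adjusted p = 0.547) and 0.00 in Pctp-/- mice (adjusted p = 0.986). Hal and Amdhd1 lie within 100 kb of each other on chromosome 10.

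Amdhd1 (ENSMUSG00000015890, chromosome 10 from 93523338 to 93540033, minus strand) measured 117, 116 and 130 FPKM in WT and 132, 123 and 121 in Pctp-/- mice on chow. Under MCD the FPKM was 34.8, 40.8 and 43.2 in WT and 47.2, 52.1 and 54.6 in Pctp-/- mice. All MCD libraries lay below all chow libraries, and on MCD the Pctp-/- libraries lay above the WT libraries. The log2 fold change of MCD was -1.59 in WT (standard error 0.10, adjusted p = 1.9e-07) and -1.28 in Pctp-/- mice (standard error 0.10, adjusted p = 1.2e-06).

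Uroc1 (ENSMUSG00000034456, chromosome 6 from 90333284 to 90364551, plus strand) measured 191, 188 and 213 FPKM in WT and 183, 190 and 191 in Pctp-/- mice on chow. On MCD it measured 91.4, 99.3 and 96.0 in WT and 115, 144 and 130 in Pctp-/- mice. The diets did not overlap, nor did the genotypes on MCD, with WT the lower. Uroc1 fell by 1.04 in WT (standard error 0.09, adjusted p = 2.9e-06) and by 0.54 in Pctp-/- mice (standard error 0.09, adjusted p = 0.00049). Of the 47 genes it came nearest to the threshold for Pctp-/- against WT on MCD (0.43, standard error 0.09, adjusted p = 0.0558, range over the alternatives 0.0315 to 0.251).

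Glutamine enters through Gls2, the liver glutaminase, and its nitrogen passes through Glud1, glutamate dehydrogenase, and the transaminases Got1, Got2 and Gpt. Gls2 was the single gene of these 5 to pass, and it fell in both genotypes. That count lay near the share of all tested genes that fell, 22.5% in WT and 24.4% in Pctp-/- mice. The summed FPKM of the group was 1072 ± 19.5 (SD, n = 3) in WT and 1096 ± 31.4 in Pctp-/- mice on chow, and 951 ± 19.5 and 922 ± 19.3 on MCD.

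Gls2 (ENSMUSG00000044005, chromosome 10 from 128194457 to 128210004, plus strand) measured 128, 125 and 134 FPKM in WT and 129, 126 and 118 in Pctp-/- mice on chow. With MCD feeding the values were 40.5, 61.5 and 68.3 in WT and 69.8, 73.2 and 68.7 in Pctp-/- mice. The diets did not overlap, and replicate 1 of the WT MCD group was the lowest. As a log2 fold change this was -1.20 in WT (standard error 0.15, adjusted p = 3.4e-05) and -0.81 in Pctp-/- mice (standard error 0.15, adjusted p = 0.00076). Gls2 overlaps Spryd4 on the opposite strand.

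Got1, the cytosolic aspartate aminotransferase (ENSMUSG00000025190, chromosome 19 from 43499752 to 43524605, minus strand), had the next largest fitted change in WT. It measured 51.8, 64.3 and 50.8 FPKM in WT and 53.4, 55.6 and 51.4 in Pctp-/- mice on chow. The MCD libraries gave 43.8, 47.2 and 46.6 in WT and 44.4, 53.3 and 36.6 in Pctp-/- mice. The diets did not overlap in WT and overlapped in Pctp-/- mice, and MCD minus chow was -0.27 in each genotype (log2, standard error 0.13, adjusted p = 0.0961 in WT and 0.104 in Pctp-/- mice). Got2, the mitochondrial form, had log2 fold changes of -0.05 and -0.06, with standard errors of 0.08. Gpt, alanine aminotransferase, had -0.24 (adjusted p = 0.0726) and -0.26 (adjusted p = 0.0585), and Glud1 had 0.02 (adjusted p = 0.841) and -0.22 (adjusted p = 0.0706).

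The group of serine, glyoxylate, proline and lysine metabolism moved in both directions. In WT 5 of its 7 genes fell and Agxt2 rose, against 22.5% and 34.5% of all tested genes. In Pctp-/- mice 3 fell and Agxt2 rose, against 24.4% and 26.0%. Sds and Agxt led the falls in WT.

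Sds, serine dehydratase, which turns serine into pyruvate (ENSMUSG00000029597, chromosome 5 from 120476526 to 120483932, plus strand), measured 54.3, 79.4 and 134 FPKM in WT and 53.0, 121 and 195 in Pctp-/- mice on chow. Under MCD the FPKM was 18.8, 26.9 and 36.5 in WT and 23.2, 83.3 and 31.4 in Pctp-/- mice. Its spread within groups was the widest of the 47 genes in these fits, and replicate 2 of the Pctp-/- MCD group lay inside the chow range. MCD minus chow was -1.62 on the log2 scale in WT (standard error 0.52, adjusted p = 0.0181) and -1.43 in Pctp-/- mice (standard error 0.52, adjusted p = 0.0364).

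The WT call of Sds was lost without replicate 3 of the WT chow group (adjusted p = 0.0758) or replicate 1 of the WT MCD group (adjusted p = 0.0684). The Pctp-/- call of Sds was lost without replicate 2 or 3 of its chow group (0.0915 and 0.144) or replicate 1 or 3 of its MCD group (0.143 and 0.108), after the correction for GC content and length (-1.13, 0.09), with no filter (0.0848) or with only the libraries of the comparison (0.0732). Pck1, the gluconeogenic carboxykinase among the periportal markers, was added here after its values were seen, and its FPKM in the Pctp-/- MCD libraries was 272, 1037 and 329, highest in the same replicate 2. Sds overlaps Gm15690 and Plbd2 on the opposite strand and lies within 100 kb of Sdsl, a serine dehydratase-like gene whose log2 fold changes were -0.01 in WT (adjusted p = 0.937) and -0.28 in Pctp-/- mice (adjusted p = 0.0721). After the correction for GC content and length, Sdsl passed as higher on MCD (0.53 in WT and 0.41 in Pctp-/- mice).

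Agxt, the peroxisomal alanine-glyoxylate aminotransferase that keeps glyoxylate from becoming oxalate (ENSMUSG00000026272, chromosome 1 from 93135240 to 93145421, plus strand), measured 212, 232 and 238 FPKM in WT and 230, 209 and 226 in Pctp-/- mice on chow. On MCD it measured 60.8, 99.2 and 106 in WT and 112, 110 and 109 in Pctp-/- mice. Replicate 1 of the WT MCD group stood below its group, and the diets did not overlap. Agxt fell by 1.39 in WT (standard error 0.16, adjusted p = 2.1e-05) and by 1.00 in Pctp-/- mice (standard error 0.16, adjusted p = 0.00032). Pctp-/- minus WT on MCD was 0.36 (adjusted p = 0.301), and 0.11 without that library.

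Agxt2, the mitochondrial aminotransferase that also breaks down dimethylarginines, went the other way and was chosen after its values were seen. On chow it measured 40.6, 50.6 and 41.6 FPKM in WT and 39.3, 45.2 and 42.2 in Pctp-/- mice. With MCD feeding the values were 85.7, 79.7 and 68.7 in WT and 83.5, 79.6 and 91.7 in Pctp-/- mice. Every MCD library lay above every chow library, with log2 fold changes of 0.81 in WT (adjusted p = 8.2e-05) and 0.99 in Pctp-/- mice (adjusted p = 2.3e-05). Agxt2 overlaps Gm21973 on its own strand.

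For proline, Prodh, proline dehydrogenase, fell in both genotypes (-0.90 in WT and -0.46 in Pctp-/- mice), and its call in Pctp-/- mice was lost without replicate 1 (adjusted p = 0.0682) or 2 (0.0542) of the Pctp-/- chow group or replicate 1 (0.0636) or 2 (0.0744) of the Pctp-/- MCD group. The Prodh change in Pctp-/- mice was -0.23 after the correction for GC content and length (adjusted p = 0.231) and -0.36 with quantile normalization (0.057). Aldh4a1, which makes glutamate in the next step, was -0.41 in WT (adjusted p = 0.00319) and -0.22 in Pctp-/- mice (adjusted p = 0.0741), but the sign turned with the correction for GC content and length (0.10 and 0.31). Aass, which begins lysine breakdown, fell in WT (-0.69, adjusted p = 0.00178) and was -0.19 in Pctp-/- mice (adjusted p = 0.313).

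In branched-chain breakdown 5 of 11 genes fell and 2 rose in WT, against 22.5% and 34.5% of all tested genes. In Pctp-/- mice 3 of the 11 fell, near the 24.4% of all tested genes, and 1 rose, against 26.0%. Bcat2, the mitochondrial aminotransferase, was -0.67 in WT (adjusted p = 0.0374) and -0.01 in Pctp-/- mice (adjusted p = 0.974), and the WT call ended without replicate 2 or 3 of the WT chow group (adjusted p = 0.149 and 0.101) or any replicate of the WT MCD group (0.122, 0.0603 and 0.0516), after the correction for GC content and length (-0.45, 0.141) or with no filter (0.0782). Of the dehydrogenase complex, Bckdha, the E1 alpha subunit, fell by the same amount in both genotypes (-0.68, adjusted p = 4.3e-05 in WT and 5.5e-05 in Pctp-/- mice). Bckdhb, the E1 beta subunit, was 0.20 in WT (adjusted p = 0.0569) and -0.00 in Pctp-/- mice (adjusted p = 0.974), and Dbt, the E2 core, was -0.20 (adjusted p = 0.0771) and 0.11 (adjusted p = 0.339).

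Bckdk, the kinase that switches this complex off, was low and rose in WT. Chosen after its values were seen, it measured 4.30, 3.57 and 4.62 FPKM on chow and 5.99, 5.78 and 5.61 on MCD in WT, and 4.43, 4.71 and 5.22 on chow and 4.84, 4.08 and 3.89 on MCD in Pctp-/- mice. On MCD each Pctp-/- library lay below each WT library. The MCD log2 fold change was 0.40 in WT (adjusted p = 0.00787) and -0.14 in Pctp-/- mice (adjusted p = 0.32), and neither the difference of the responses (-0.54, adjusted p = 0.148) nor Pctp-/- minus WT on MCD (-0.37, adjusted p = 0.131) passed.

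In the leucine arm, Mccc2, the beta subunit of methylcrotonyl-CoA carboxylase (ENSMUSG00000021646, chromosome 13 from 99948530 to 100015639, minus strand), measured 31.8, 35.6 and 33.4 FPKM in WT and 40.1, 33.8 and 31.9 in Pctp-/- mice on chow. The MCD libraries gave 12.9, 14.7 and 16.3 in WT and 18.2, 19.1 and 19.9 in Pctp-/- mice. Neither the diets nor the genotypes on MCD overlapped. Mccc2 fell by 1.15 in WT (standard error 0.11, adjusted p = 4.1e-06) and by 0.85 in Pctp-/- mice (standard error 0.11, adjusted p = 5.4e-05). Its partner Mccc1, the alpha subunit, did not pass in either genotype (-0.23 with adjusted p = 0.0526 in WT and 0.11 with adjusted p = 0.328 in Pctp-/- mice).

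Ivd, isovaleryl-CoA dehydrogenase (ENSMUSG00000027332, chromosome 2 from 118861954 to 118882909, plus strand), measured 51.1, 56.3 and 54.4 FPKM in WT and 57.9, 51.8 and 45.5 in Pctp-/- mice on chow. Under MCD the FPKM was 27.8, 33.5 and 36.9 in WT and 38.1, 37.8 and 38.2 in Pctp-/- mice. All MCD libraries lay below all chow libraries. Ivd fell by 0.71 in WT (standard error 0.11, adjusted p = 0.00022) and by 0.43 in Pctp-/- mice (standard error 0.11, adjusted p = 0.00757).

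In the valine arm, Hibch, which frees hydroxyisobutyrate from CoA, rose in WT (0.33, adjusted p = 0.0198) and in Pctp-/- mice (0.45, adjusted p = 0.00425). The correction for GC content and length turned its WT change to -0.04 and ended the call in Pctp-/- mice (adjusted p = 0.533), and the WT call also ended without replicate 1 of the WT chow group (adjusted p = 0.0688) or replicate 2 or 3 of the WT MCD group (0.0697 and 0.0837), with median-of-ratios scaling (0.19, 0.243), with quantile normalization (0.24, 0.123) or with only the libraries of the comparison (0.0541). Hibadh, the next dehydrogenase, was -0.07 in WT (adjusted p = 0.579) and -0.10 in Pctp-/- mice (adjusted p = 0.389). Aldh6a1, which makes propionyl-CoA from valine, fell in WT (-0.63, adjusted p = 0.00029) and was -0.23 in Pctp-/- mice (adjusted p = 0.0904).

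On chow Ddc alone of the 47 genes passed for Pctp-/- against WT, the median log2 fold change was -0.02, against 0.00596 over all genes, and 1 of the 47 had an unadjusted p under 0.05, against 6.98% of all genes. The fitted differences other than Ddc ran from -0.53 (Bcat2) to 0.57 (Tat), both chosen as the ends of the range. The Pctp-/- libraries lay above the WT libraries for 3 genes and below them for 1, against 5.17% and 5.38% of all genes.

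On MCD none of the 47 genes passed for Pctp-/- against WT in limma, where 0.818% of all tested genes passed. At an unadjusted p under 0.05 there were 20, against 16.3% of all genes, of which 16 were higher in Pctp-/- mice, against 3.30%, and 4 lower, against 13.0%. All 3 Pctp-/- libraries lay above all 3 WT libraries for 16 of the 47 genes, against 5.50% of all genes, and below them for 5, against 21.1%. The 16 were Otc, Hpd, Ido2, Kmo, Haao, Afmid, Uroc1, Amdhd1, Gls2, Agxt, Prodh, Aldh6a1, Dbt, Ivd, Mccc1 and Mccc2, and the 5 were Nags, Slc25a15, Acmsd, Glud1 and Bckdk. The median difference was 0.19, against -0.09 over all genes.

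Replicate 1 of the WT MCD group bore on this comparison. Without it the median difference was 0.11, against -0.07 over all genes, 12 genes had an unadjusted p under 0.05 (8 higher and 4 lower), against 11.6% of all genes, and none passed after adjustment. Genes apart from the 3 WT MCD libraries stay apart from the remaining pair by construction, and 3 more, Bckdhb, Hibadh and Kynu, then lay wholly below them, for 8 in all, against 27.6% of all genes. Those wholly above the remaining pair were still 16, against 10.0% of all genes. The difference for Gls2 went from 0.34 to 0.12, that for Fah from 0.39 to 0.18, and that for Afmid from 0.65 to 0.57. Beside its higher macrophage markers, that library had a summed FPKM of 47.6 for 8 stellate and fibroblast markers (23.8 and 19.3 in the other WT MCD libraries), 25.5 for 6 bile duct markers (13.7 and 15.9) and 2774 for 6 pericentral markers (4215 and 5075). The part of these cell types in the values was not tested.

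The number of genes that passed for Pctp-/- against WT on MCD went from 0 to at most 3 over the alternatives. These were Otc, Uroc1 and Amdhd1 with quantile normalization, Otc and Uroc1 after rescaling without Alb, Uroc1 alone with a mean FPKM of at least 5 or without replicate 1 of the Pctp-/- MCD group (adjusted p = 0.0391), Otc alone with the replicate block or without replicate 3 of the WT MCD group (0.0435), and Afmid alone with a pseudocount of 0.1. Pericentral and periportal markers gave no call for the genotypes after adjustment, with 0 of 6 each on MCD. At an unadjusted p under 0.05 in limma, 3 of the 6 pericentral markers were higher and 1 lower in Pctp-/- mice on MCD. Of the 6 periportal markers 1 was higher and 0 lower at that p, where 16.3% of all genes were in either direction. The summed FPKM of 6 periportal markers was 1014 to 1049 in WT and 918 to 1775 in Pctp-/- mice on MCD, against 1533 to 2613 and 1764 to 2429 on chow, and that of 6 pericentral markers was 2774 to 5075 and 5114 to 5347 on MCD, against 4034 to 5161 and 3502 to 4002 on chow. Single markers went both ways. On MCD 2 periportal markers passed as higher and 2 as lower in WT (median log2 fold change 0.24), and 1 and 2 in Pctp-/- mice (0.29). Of the pericentral markers 2 passed as higher and 3 as lower in WT, and 3 and 2 in Pctp-/- mice. Over all tested genes the shares were 34.5% and 22.5% in WT, and 26.0% and 24.4% in Pctp-/- mice. None of these 12 markers was at 0 in every library, and the part of zonation in the results was not tested.

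**Figure D4:**
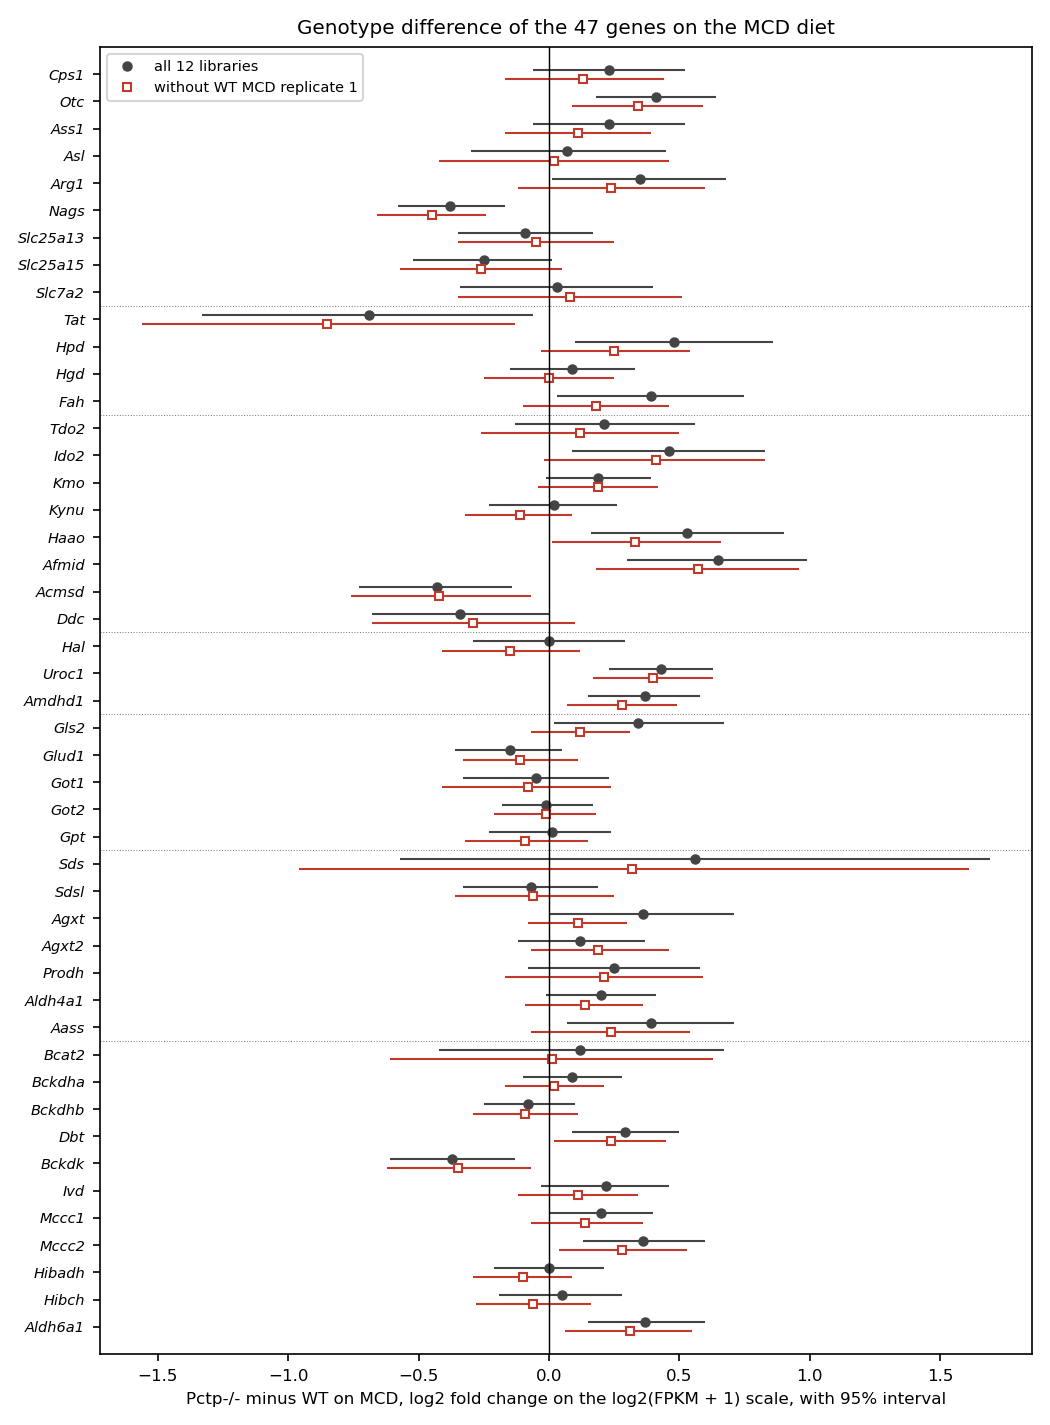
Log2 difference of Pctp-/- from WT on MCD for each of the 47 genes with 95% intervals, from all 12 libraries (grey points) and without replicate 1 of the WT MCD group (red squares). Most points lie right of 0 (median 0.19, and 0.11 without that library), none passed after adjustment, and Nags, Tat, Acmsd and Bckdk lie to the left.

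For the difference of the MCD responses, which shares libraries with the comparisons above, Ddc alone passed. There were 14 genes at an unadjusted p under 0.05, against 15.1% of all genes, of which 9 had a response shifted upward in Pctp-/- mice, against 3.95%, and 5 downward, against 11.2%. The median over the 47 was 0.22, against -0.10 over all genes, and 0.14 against -0.07 without replicate 1 of the WT MCD group.

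**Figure D5:**
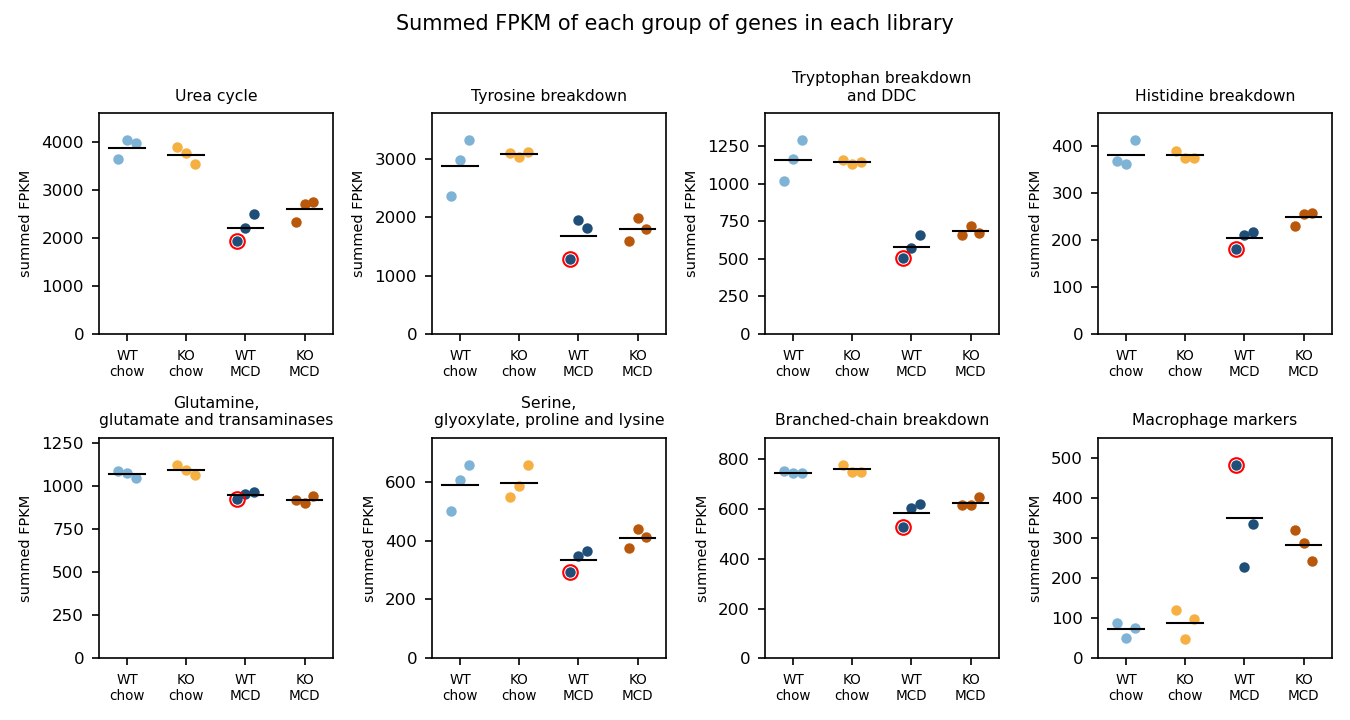
Summed FPKM of each of the 7 groups of genes and of 8 macrophage markers in each of the 12 libraries, with the mean of 3 mice (line); the axes start at 0, KO stands for Pctp-/-, and a red ring marks replicate 1 of the WT MCD group. That library has the lowest sum of its group for all 7 groups of genes and the highest for the macrophage markers (483).

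Other genes of the same pathways, from 4 lists of 57 symbols of which 56 were in the table and 51 were tested, also fell more often than they rose on MCD. In WT 32 fell and 11 rose, against 22.5% and 34.5% of all tested genes. In Pctp-/- mice 27 fell and 8 rose, against 24.4% and 26.0%. By list, 4 of 7 tested urea cycle and ammonia genes fell in WT and 3 rose, 6 of 9 aromatic amino acid genes fell and 1 rose, 8 of 13 branched-chain and propionate genes fell and 2 rose, and 14 of 22 genes for histidine, proline, lysine, glycine, serine and alanine fell and 5 rose. The largest falls in WT were in Pipox (-3.46), which oxidises pipecolate and sarcosine, Prodh2 (-2.86), the hydroxyproline dehydrogenase, and Car5a (-2.66), the mitochondrial carbonic anhydrase that supplies bicarbonate to Cps1. The largest rises were in Asns (3.24), asparagine synthetase, Aldh18a1 (1.07), which opens proline synthesis, and Glul (1.00), the glutamine synthetase that takes up ammonia in pericentral hepatocytes. Aldh18a1 was low in WT, with 0.0847 to 0.384 FPKM on chow and 2.92, 1.26 and 1.10 on MCD, replicate 1 the highest. Its change in Pctp-/- mice did not pass in limma (0.31, adjusted p = 0.237).

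Of these 51 genes 3 passed for Pctp-/- against WT on MCD, against 0.818% of all tested genes. They were the 3 with the largest falls in WT, and all were higher in Pctp-/- mice. The WT MCD libraries enter both comparisons, so low values there enlarge the fall and the difference alike. Car5a measured 6.18, 8.44 and 9.26 FPKM in WT and 16.3, 16.6 and 23.1 in Pctp-/- mice on MCD, and 52.8 to 57.6 and 57.7 to 65.2 on chow. The genotypes did not overlap on either diet. Its difference was 1.13 on MCD (adjusted p = 0.00419) and 0.14 on chow (adjusted p = 0.959). The Car5a call held with each of the 12 libraries left out (adjusted p of 0.00284 to 0.0192) and was lost with only the libraries of the comparison in the fit (0.0585). The differences of Pipox (0.94, adjusted p = 0.0349) and Prodh2 (0.64, adjusted p = 0.0492) on MCD were closer to the threshold. With 1 library left out the Pipox call ended for 9 of the 12 libraries, with adjusted p of up to 0.152, and the Prodh2 call for 10 of the 12, with adjusted p of up to 0.18. Replicate 1 of the WT MCD group was among them (0.71 with adjusted p = 0.0696 for Pipox without it, and 0.59 with adjusted p = 0.152 for Prodh2). None of the 51 passed on chow or for the difference of the responses.

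Of 11 regulators known to drive these genes, none passed for the genotypes on either diet or for the difference of the responses. On MCD 9 fell and 1 rose in WT, against 22.5% and 34.5% of all tested genes. In Pctp-/- mice 6 fell and 2 rose, against 24.4% and 26.0%. Among those that fell in both were Cebpa (-2.04 in WT and -1.48 in Pctp-/- mice), Cebpb (-2.40 and -3.25), Hnf4a (-1.10 and -0.87), Klf15 (-1.60 and -1.44) and Gcgr, the glucagon receptor (-0.79 and -0.77), named after their values were seen. Ppargc1a, a coactivator of fasting genes, rose in both (1.04 and 1.35).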

How the data were processed

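Bulk RNA-seq of whole liver was analysed from the FPKM table deposited by the authors (fragments per gene scaled to its length and to the mapped fragments of the library, 1 column per library). The submitters' processing notes name the mm10 build, and the aligner, the counter and the use of strand are not given in the sources used here. Read totals, mapped shares and quality percentages came from the deposited table of read statistics.

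FPKM was transformed to log2(FPKM + 1), genes with a mean of at least 0.5 over the 12 libraries were kept (12466 of 35275), and limma 3.58.1 (R 4.3.3) was fitted with 1 mean per group and a mean-variance trend, with Benjamini-Hochberg adjustment over all genes tested. Since FPKM are not counts, no count model was used. A gene passed where the adjusted p was under 0.05, whatever its fold change. The steps were tested on simulated data first. Tables were read with pandas 2.3.3 (Python 3.11.15) and plotted with matplotlib 3.10.9.

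The 47 genes and the other lists were chosen with earlier results of these data known. Values in every library are given for genes that passed for the genotypes and, in each group, for the 2 with the largest absolute log2 fold change of MCD in WT. From the other pathway lists, those that passed for the genotypes and the 3 largest rises and falls in WT are named. Other genes are named as chosen after their values were seen, or to account for all 47.

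Alternatives covered the pseudocount (0.1), the filter (none, or a mean FPKM of at least 5), quantile and median-of-ratios scaling, the libraries in the fit, the replicate block, the variance model, a minimum log2 fold change of 1 and each library left out in turn. A correction for GC content and transcript length (12401 genes) and rescaling without Alb were chosen after seeing the data. 1 regulator and 1 motif are not reported here. Gene positions are those of GRCm38.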

Additional observations from a re-analysis of the deposited data

Results flagged for a closer look

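The response of Ddc to MCD differed between the genotypes by a test of the difference itself. The response in Pctp-/- mice minus that in WT was -1.37 on the log2(FPKM + 1) scale (standard error 0.22, adjusted p = 0.0488 in limma), from 0.36 in WT and -1.01 in Pctp-/- mice. Pctp-/- mice had the higher values on chow (43.7, 52.0 and 57.1 FPKM, against 26.6, 27.3 and 19.7 in WT), and the genotypes overlapped on MCD. The adjusted p was 0.0248 to 0.143 over the alternatives. Ddc overlaps 1700042O10Rik on the opposite strand and shares its chromosome with Pctp. The part of that gene, or of sequence linked to the knockout, in the values was not tested.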

How the results depend on the processing

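Of the calls among the 47 genes, 23 of 32 for MCD in WT and 18 of 24 for MCD in Pctp-/- mice were kept under every alternative other than the minimum log2 fold change. These alternatives were 23 for each gene except Bckdk, which a mean FPKM of at least 5 left out (22). With a minimum log2 fold change of 1 the counts were 14 in WT and 9 in Pctp-/- mice. Leaving out 1 library gave 27 to 34 in WT, 21 to 26 in Pctp-/- mice, 0 to 1 for the genotypes on chow, 0 to 1 on MCD and 0 to 2 for the difference of the responses. For the genotypes on chow the count was 0 with no filter and 0 with only the libraries of the comparison. On MCD it was 1 with a pseudocount of 0.1, 1 with a mean FPKM of at least 5, 3 with quantile normalization and 2 without Alb. For the difference of the responses it was 0 with a pseudocount of 0.1, no filter, quantile normalization, median-of-ratios scaling, no mean-variance trend or the GC content and length correction. That correction gave 34 calls for MCD in Pctp-/- mice, against 24, with a median of -0.44, and turned the direction of Aldh4a1 (0.31 in Pctp-/- mice and 0.10 in WT) and of Hibch (-0.04) in WT, and gave calls opposite in sign to uncalled values for Glud1 (-0.28) in WT, Kmo (-0.24) in Pctp-/- mice and Sdsl (0.41 in Pctp-/- mice and 0.53 in WT). Gcsh, of the other pathway genes, went to -0.01 in WT. The cause was not tested.

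With the replicate number as a block the counts were 34 for MCD in WT, 27 for MCD in Pctp-/- mice, 1 for the genotypes on chow, 1 on MCD (Otc) and 1 for the difference of the responses. The labels number biological replicates within each group and state no pairing, so the main fit used none. The deviations of same-numbered samples correlated at -0.097 to 0.225 (median 0.077), with 8 of 18 pairs over 0.1. Those of samples with other numbers correlated at -0.231 to 0.16 (median -0.0375), with 3 of 36 pairs over 0.1. What same-numbered samples may share was not tested.

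FPKM give no counts per gene, so no counting interval was available, and 3 samples a group limit the precision. Strand use in counting was not given, which limits the values of the 18 genes that overlap another gene.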
